A study of Mus musculus with 18 samples.

Results

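The solute carriers (SLC genes) form the largest class of membrane transporters, and their transcripts were examined here in mouse eosinophils cultured with apoptotic cells (ACs). Genes were chosen by symbol (Slc, a family number, letters and a number) and by a normalized count that averaged 10 or more across the 18 libraries. The table held 54446 genes, of which 377 had an SLC symbol. Of these, 12 were left out by name, 216 of the remaining 365 had a mean under 10, including 48 that were at 0 in every library, and 149 were kept. The choice used the measured level, so the level itself is described below without a test. Just inside the limit were Slc16a1 and Slc30a4, with means of 10.1 and 10.2, and just outside it were Slc26a6 and Slc30a2, with 9.72 and 8.89. For 10 of the members the mean fell under 10 when 1 group was left out, among them Slc39a8 and Slc30a4 (IL-4 + ACs), Slc6a19 (IFN-γ + ACs), Slc6a9 (IFN-γ + E. coli + ACs) and Slc16a1 (either group with IFN-γ), so that a high value in that group was partly a condition for being kept.

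Eosinophils came from the peritoneal cavity of Il5Tg mice, in which an Il5 transgene drives eosinophilia, and are labelled C57BL/6; the age of these mice is not given in the sources used here. In all 6 groups they were cultured for 18 h with 5 ACs per eosinophil, the ACs being wild-type thymocytes killed with dexamethasone. The Type 1 experiment had 12 libraries, 3 of each group, namely ACs with no further stimulus, ACs with E. coli, ACs with IFN-γ, and ACs with both stimuli (IFN-γ + E. coli), IFN-γ being given before the bacteria. The IL-4 experiment had the other 6, 3 each with ACs alone and IL-4 + ACs. Every group therefore carried ACs, and eosinophils without ACs are not analysed here. According to the study's methods, cells were purified again on anti-Siglec-F beads after culture, and RNA was sequenced by CEL-Seq2, which reads the 3′ ends of transcripts. A normalized count is the number of reads on a gene divided by a size factor of its library.

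Each SLC family moves a class of solutes across a membrane. Families 1, 7, 36, 38 and 43 mainly carry amino acids, families 2 and 37 sugars and sugar phosphates, family 25 metabolites across the inner mitochondrial membrane, family 35 nucleotide sugars into the Golgi apparatus and endoplasmic reticulum, and families 30, 31 and 39 zinc and copper. In leukocytes, cytokine and bacterial stimulation is known to change the uptake of amino acids, sugars and metals, and some carriers, such as the lysosomal peptide transporter Slc15a3, also work inside endosomes and lysosomes. Several genes carry an SLC symbol without being transporters, such as Slc9a3r1 and Slc9a3r2, which encode scaffold proteins of membrane transporters.

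Between 779421 and 7782072 reads were counted on genes per library, with a median of 4461121. The replicate 3 libraries of both groups of the IL-4 experiment were shallow, so that 3 reads stood for 16.1 (ACs) and 15.4 (IL-4 + ACs) normalized counts there, against 1.58 to 6.16 in the other 16 libraries. The members made up 0.517% to 0.677% of the normalized total. Siglecf and Ccr3, which define eosinophils, had means of at least 1630 and 2974 in every group, whereas the granule protein genes Epx and Prg3 had means of at most 14.1 and 17.4, and a further granule protein gene, Prg2, had means of 74.5 to 243 and was above 0 in all 18 libraries. Markers of macrophages were abundant and moved with the stimuli. Their sum over 8 genes ranged from 6584 to 7622 with ACs, 4611 to 5159 after E. coli, 8873 to 11940.1 after IFN-γ and 5486 to 5953 after both, and from 11215 to 13859 and 9497 to 15497 in the ACs and IL-4 + ACs libraries of the IL-4 experiment. None of the 8 was at 0 in any library, and 1 of them, Adgre1, is also expressed by mouse eosinophils. Against ACs, 4 of the 8 fell with E. coli (among them C1qa, C1qb and Timd4), 3 rose with IFN-γ (C1qb, Mertk and Timd4), 2 rose (Adgre1 and Mertk) and 4 fell with both (among them C1qa, C1qb and Cd5l), and none passed the threshold with IL-4. Of the eosinophil markers, Siglecf was lower with IFN-γ and with both, from a mean of 3237 with ACs to 1630 and 1922, and Il5ra was lower with E. coli and with IFN-γ. Of the neutrophil markers, whose sum over 5 genes had means of 80.5 to 616, Mmp8 was lower with E. coli, IFN-γ and IL-4, while Ly6g was higher with IFN-γ and with both at means of at most 21.6 and Elane was above 0 in 6 of 18 libraries. The mast cell gene Cpa3 was higher with IFN-γ and with both, at means of at most 31.3, with Mcpt4 above 0 in 4 libraries. The part of these markers in the SLC results was not tested. In pooled cells like these, fewer cells of a type and less RNA per cell cannot be told apart. Thymocyte and T cell markers summed to means of 59.6 to 152 over 11 genes per group, of which Rag1 and Dntt were above 0 in 5 of 18 libraries each, and those of B cells to 21.5 to 66.7 over 4 genes, and none of the 3 T cell genes (2 with IL-4) and 1 B cell gene tested passed the threshold.

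Members covered a wide range of levels, from the limit of 10 to 1557, with a median of 70.8. A mean of at least 100 was found for 60 members and a mean of at least 1000 for 4. The highest means were those of Slc6a6 (1557), which carries taurine, Slc25a39 (1539), a mitochondrial glutathione carrier, Slc48a1 (1439.5), which exports haem from endosomes and lysosomes, and Slc38a2 (1236), a sodium-coupled carrier of small neutral amino acids. They were followed by Slc25a5 (905), an ADP/ATP exchanger, Slc43a2 (880.0), a carrier of large neutral amino acids, Slc16a6 (757), a monocarboxylate carrier, and Slc25a30 (725), a mitochondrial carrier.

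The first comparisons asked which transporters changed when Type 1 stimuli were added to eosinophils with ACs. A transcript was called higher or lower at a limma adjusted p (Benjamini-Hochberg, over all genes tested) under 0.05 together with a 1.5-fold change or more; log2 fold changes are of the normalized count + 1, and groups had 3 libraries each. E. coli moved few members. Of 144 tested, 8 were higher (5.56%) and 6 lower (4.17%), against 5.05% and 5.25% of all 10166 genes tested. IFN-γ raised 15 members (10.4%) and lowered 18 (12.5%), against 11.4% and 9.96% of all genes. IFN-γ + E. coli raised 22 (15.3%) and lowered 37 (25.7%), against 14.7% and 17.2% of all genes. These counts do not hold the 12 SLC genes left out by name, of which 7 were higher with E. coli, 8 with IFN-γ and 8 with both, and none lower. For the members kept, the shares were near those of all genes except for members lower with IFN-γ + E. coli. In that comparison the median change was -0.15 (log2) over the members tested and -0.05 over all genes. In the libraries with IFN-γ + E. coli, 4 of the 8 macrophage markers were lower too (among them C1qa, C1qb and Cd5l) and 2 were higher (Adgre1 and Mertk), as described above. Their part in this count was not tested. The 3 comparisons share the ACs libraries. In all, 67 members passed in at least 1 of the 3 and 82 in none of the 4 stimulus comparisons, including 5 with a mean too low for a Type 1 test. Counts for E. coli depended on single libraries, with 5 members higher without ACs replicate 1 and 2 lower without ACs replicate 3, and 3 lower without any 1 of ACs replicate 1, E. coli + ACs replicate 1 or E. coli + ACs replicate 2. For IFN-γ, 11 members were lower without ACs replicate 2. The counts of all genes fell in these settings too. Those higher with E. coli went from 513 to 471 without ACs replicate 1. Those lower with E. coli went from 534 to between 352 and 407, and those lower with IFN-γ from 1013 to 775. The members higher with IFN-γ include Slc6a19 and Slc16a1, and those higher with both include Slc6a9 and Slc16a1, which were kept through these groups.

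**Figure D1:**
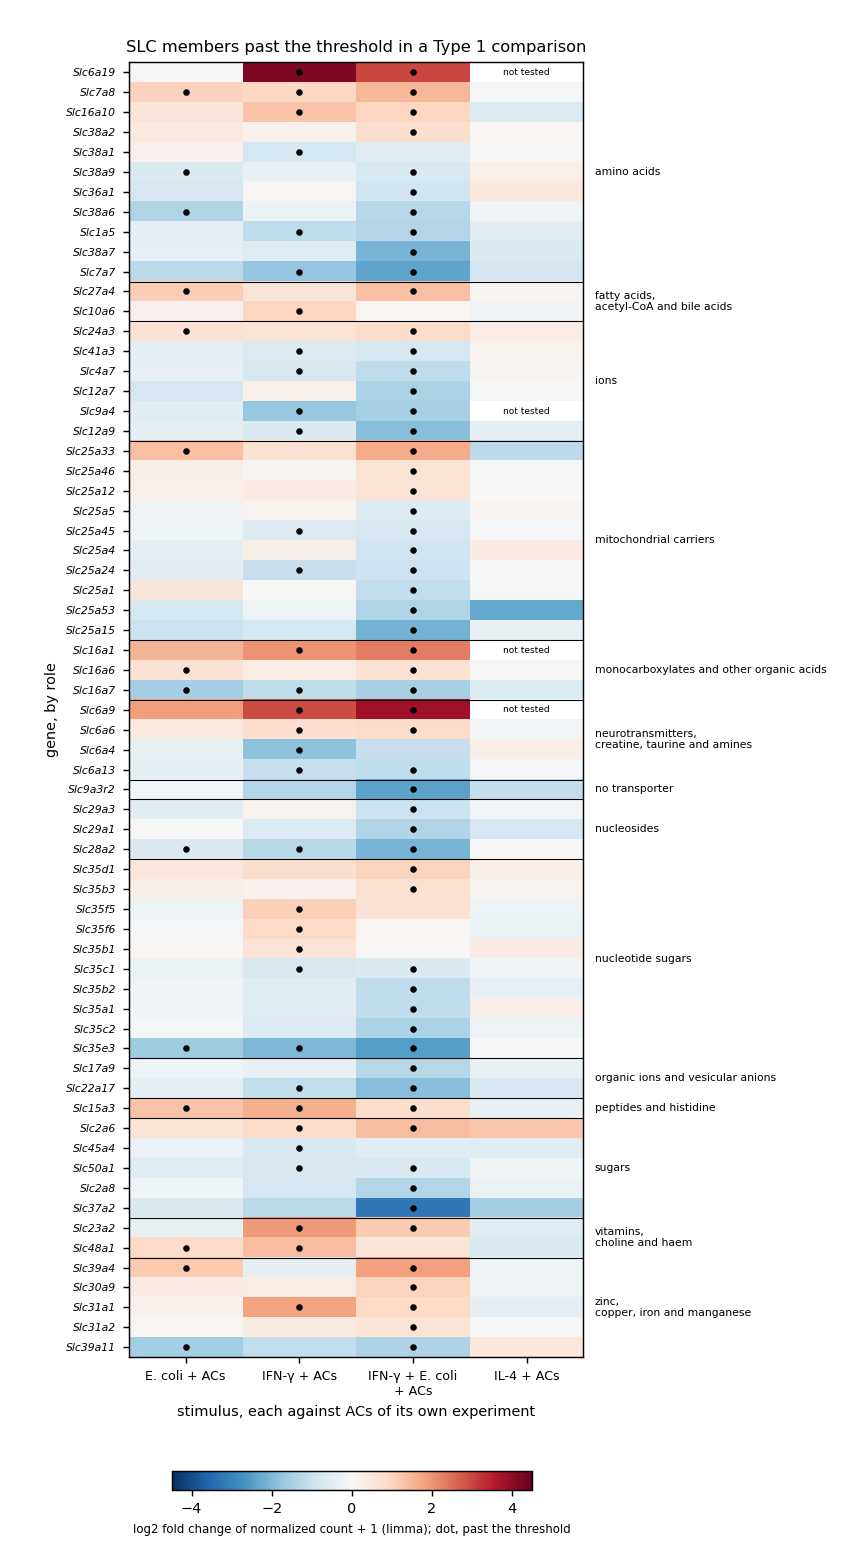
Log2 fold change (colour) of 65 of the 67 members past the threshold in at least 1 Type 1 comparison, grouped by role, with each stimulus against ACs of its own experiment and dots marking a call. IFN-γ + E. coli has the most dots, and the IL-4 column has none.

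Grouped by what they carry, members that were lower with IFN-γ + E. coli were found in 11 of 14 role lists and members that were higher in 11. Among 31 mitochondrial carriers tested 3 were higher and 8 lower, among 18 ion carriers 1 was higher and 6 lower, among 17 amino acid carriers 4 and 6, and among 19 nucleotide sugar carriers 2 and 5. All 3 nucleoside carriers were lower. Over all genes, 14.7% were higher and 17.2% lower in this comparison. Of 14 carriers of zinc, copper, iron and manganese tested, 4 were higher and 1 was lower. With IFN-γ alone, 4 of 18 ion carriers were lower and none higher, against 9.96% and 11.4% of all genes. With lists this small, no share is set apart from that of all genes.

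**Figure D2:**
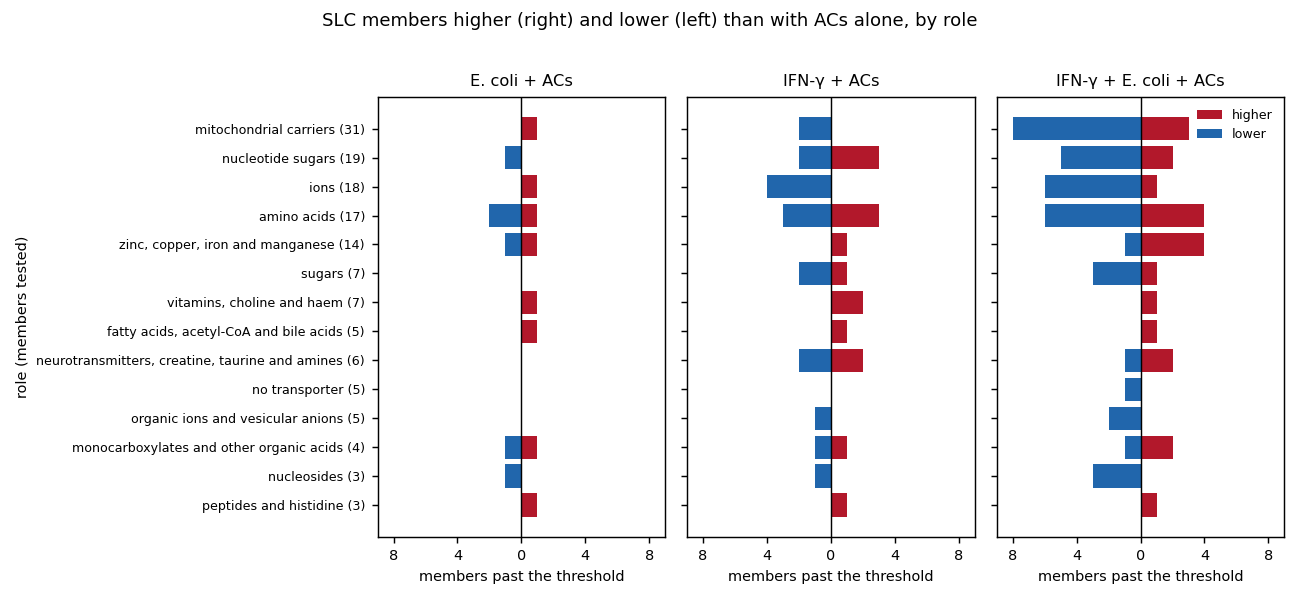
Number of members past the threshold in each role list, higher (right) and lower (left) than with ACs, for the 3 Type 1 stimuli, with the number tested beside each role. The bars to the left grow from E. coli + ACs to IFN-γ + E. coli + ACs for mitochondrial carriers (0, 2 and 8 members) and ion carriers (0, 4 and 6).

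Members past the threshold with each of the 3 Type 1 stimuli were Slc15a3, Slc7a8, Slc28a2, Slc35e3 and Slc16a7. Promoters of 3 of them are shown with the motifs searched, since the direction of these genes was shared over the stimuli. RefSeq promoters (GRCm38.p6) were matched for 116 of 149 members, not for Slc15a3 and Slc16a7. In each line the 250 bases before the start are given 5′ to 3′ on the strand of the gene, and capitals mark the motif: GAS (TTCNNNGAA) for Slc28a2 (chr2:122426185-122426434, plus strand), the E-box core (CACGTG) for Slc35e3 (chr10:117746359-117746608, minus strand), and the ISRE core (GAAANNGAA) for Slc7a8 (chr14:54781887-54782136, minus strand).
Slc28a2: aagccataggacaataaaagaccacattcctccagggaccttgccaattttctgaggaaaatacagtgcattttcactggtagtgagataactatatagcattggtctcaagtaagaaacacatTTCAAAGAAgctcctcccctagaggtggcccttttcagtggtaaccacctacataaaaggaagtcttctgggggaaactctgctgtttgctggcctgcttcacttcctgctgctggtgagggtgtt
Slc35e3: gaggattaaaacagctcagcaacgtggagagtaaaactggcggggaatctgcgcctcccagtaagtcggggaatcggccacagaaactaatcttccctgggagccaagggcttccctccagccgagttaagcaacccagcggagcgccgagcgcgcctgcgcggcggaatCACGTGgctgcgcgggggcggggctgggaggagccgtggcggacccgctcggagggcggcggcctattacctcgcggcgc
Slc7a8: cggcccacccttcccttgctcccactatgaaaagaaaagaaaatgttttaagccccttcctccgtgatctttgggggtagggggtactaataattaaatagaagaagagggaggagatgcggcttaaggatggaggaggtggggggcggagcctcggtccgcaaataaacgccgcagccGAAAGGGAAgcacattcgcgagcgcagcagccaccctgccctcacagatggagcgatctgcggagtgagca
On either strand, over windows from 250 bases before to 50 after the start, GAS was found in 5.42% of 166 member windows and 8.3% of all 32851 promoter windows, the ISRE core in 7.23% and 8.56%, the E-box core in 15.1% and 7.15%, and the antioxidant element core (TGACNNNGC) in 21.7% and 12.4%. With both stimuli, 22 windows belonged to members that were higher and 51 to members that were lower. GAS was in 0% and 3.92% of these, the ISRE core in 9.09% and 3.92%, the E-box core in 13.6% and 21.6%, and the antioxidant element core in 31.8% and 19.6%. No set was tested, and those of the single stimuli had fewer windows. GAS and ISRE core matches can share bases, and a match is a run of letters, not a measured binding site.

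Peptide and amino acid carriers included the clearest rises. Slc15a3 (ENSMUSG00000024737.2, chr19:10839727-10859362, plus strand), which exports peptides and histidine from lysosomes, had normalized counts of 233, 202 and 190.0 with ACs, 559, 449 and 511 after E. coli, 555, 756 and 616 after IFN-γ and 378, 393 and 320.1 after both stimuli, ACs being present throughout. All libraries of each stimulus lay above the ACs libraries, and the libraries with both stimuli lay below those with either alone. The change was 1.28 ± 0.15, adjusted p = 5.5e-06 with E. coli, 1.61 ± 0.15, adjusted p = 9.5e-08 with IFN-γ and 0.802 ± 0.15, adjusted p = 0.00025 with both (log2 fold change ± SE). Its neighbour in role, Slc15a4, had values with ACs of 127, 129 and 97.9 and with IFN-γ + E. coli of 84.1, 131 and 55.2, which overlapped. Slc7a8 (ENSMUSG00000022180.7, chr14:54722209-54781946, minus strand), the light chain LAT2 that exchanges large neutral amino acids, had 411, 428 and 395 with ACs, 833, 772 and 919 after E. coli, 822, 616 and 926 after IFN-γ and 1421, 950.4 and 1169 after both stimuli. Each stimulus left no overlap with ACs, and the highest counts were those with both. The log2 fold change was 1.03 ± 0.15, adjusted p = 0.00013 with E. coli, 0.92 ± 0.15, adjusted p = 0.00018 with IFN-γ and 1.499 ± 0.15, adjusted p = 3.4e-07 with both.

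Slc6a19 (ENSMUSG00000021565.16, chr13:73679745-73704865, minus strand), the neutral amino acid carrier B0AT1 known from kidney and intestine, had at most 12.2 normalized counts in the Type 1 libraries without IFN-γ. Its normalized counts were 0.81, 0 and 12.2 with ACs, 3.35, 0 and 4.40 after E. coli, 51.4, 52.7 and 51.3 after IFN-γ and 21.4, 26.9 and 19.3 after both stimuli. The libraries with IFN-γ, alone or with E. coli, lay above all ACs libraries. The log2 fold change with IFN-γ was 4.196, given as a description, since the IFN-γ libraries brought its mean past 10 (6.08 without them). With both stimuli it rose (log2 fold change 3.02 ± 0.78 (SE), adjusted p = 0.005). The size depended on how low values were treated and on ACs replicates 2 and 3, with 2.84 and 1.78 at a pseudocount of 5, 3.47 and 2.296 by edgeR, 3.43 and 2.25 without ACs replicate 2, and 5.29 and 4.12 without ACs replicate 3, and the rise with both did not pass by DESeq2 (2.36, adjusted p = 0.071). Slc38a2 rose with both stimuli (log2 fold change 0.79 ± 0.10 (SE), adjusted p = 6e-06), from 1135, 1123 and 1069 to 2051, 1770.0 and 1956, without overlap.

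Falls among amino acid carriers covered several families. Slc1a5, the glutamine carrier ASCT2, had 144, 148 and 155 with ACs, 116, 110.4 and 111 after E. coli, 98.9, 56.2 and 55.4 after IFN-γ and 51.3, 69.6 and 56.6 after both stimuli. The 3 libraries of IFN-γ + ACs and the 3 of IFN-γ + E. coli + ACs lay below all ACs libraries. It fell with IFN-γ (log2 fold change -1.13 ± 0.22 (SE), adjusted p = 0.00067) and with both (log2 fold change -1.33 ± 0.22 (SE), adjusted p = 8.5e-05). Slc38a6, an orphan of the same family as Slc38a2, fell with E. coli (log2 fold change -1.36 ± 0.25 (SE), adjusted p = 0.0008) from 189, 149 and 148 to 71.2, 57.2 and 58.9, and with both to 57.02, 85.5 and 57.95. With IFN-γ alone its values, 89.7, 191 and 137, overlapped those with ACs. Slc38a7, a lysosomal glutamine and asparagine exporter, fell with both (log2 fold change -2.08 ± 0.45 (SE), adjusted p = 0.0011), from 56.9, 62.9 and 55.5 to 28.5, 13.4 and 5.52. Its levels were low, and no overlap was seen between these groups. With Slc7a7 (-2.38), the light chain y+LAT1, and the lysosomal proteins Slc36a1 (-0.900) and Slc38a9 (-0.69), 6 of 17 amino acid carriers tested were lower with both stimuli. Slc38a1, a glutamine carrier next to Slc38a2 on chromosome 15, was lower with IFN-γ (-0.78), and Slc16a10, an aromatic amino acid carrier, was higher with IFN-γ (1.29) and with both (0.96). These members, and others below that complete a count, were named after their values were seen.

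The 4 metal carriers that were higher with both stimuli were the copper carriers Slc31a1 and Slc31a2 and the zinc carriers Slc39a4 and Slc30a9. Slc31a1 (ENSMUSG00000066150.12, chr4:62360727-62391769, plus strand), the high-affinity copper importer CTR1, had 367, 221 and 264 with ACs, 378, 281 and 302 after E. coli, 869, 1068 and 969 after IFN-γ and 486, 464 and 614 after both stimuli. The libraries with IFN-γ alone were the highest of all, and those with both stimuli lay between them and ACs. It rose with IFN-γ (3.41-fold of the ACs mean; log2 fold change 1.79 ± 0.17 (SE), adjusted p = 2.2e-07) and with both (log2 fold change 0.896 ± 0.17 (SE), adjusted p = 0.00044), and with E. coli alone the groups overlapped (0.19 ± 0.17, adjusted p = 0.54). Slc31a2, its paralog 62316 bases away on chromosome 4, rose with both (log2 fold change 0.605 ± 0.15 (SE), adjusted p = 0.0034), from 477, 437 and 378 to 681, 594 and 688 and without overlap. Slc30a9 rose with both (log2 fold change 1.002 ± 0.18 (SE), adjusted p = 0.00019), from 75.6, 71.3 and 93.8 to 178, 148 and 157. Slc39a4 (ENSMUSG00000063354.7, chr15:76612383-76617384, minus strand), the zinc importer ZIP4, was higher with E. coli than without, with 55.3, 53.5 and 35.1 with ACs, 82.04, 121 and 130.2 after E. coli, 25.1, 43.6 and 41.04 after IFN-γ and 182, 173 and 156 after both stimuli. Both groups with E. coli lay above ACs, while the IFN-γ libraries overlapped the ACs libraries. It rose with E. coli (log2 fold change 1.195 ± 0.25 (SE), adjusted p = 0.0032) and with both (log2 fold change 1.83 ± 0.25 (SE), adjusted p = 1.2e-05). Slc39a11, the zinc carrier ZIP11, fell with E. coli (log2 fold change -1.52 ± 0.43 (SE), adjusted p = 0.024), from 93.5, 55.4 and 58.7 to 16.7, 14.7 and 47.5, and with both (log2 fold change -1.38 ± 0.43 (SE), adjusted p = 0.017). The fall with E. coli did not pass at -1.28 without ACs replicate 1, -1.61 without ACs replicate 3, -1.31 without E. coli + ACs replicate 1 and -1.22 without E. coli + ACs replicate 2, and with all 18 libraries in 1 fit (-1.52, adjusted p = 0.11). The fall with both did not pass at -1.14 without ACs replicate 1, and with all 18 libraries in 1 fit (-1.38, adjusted p = 0.078).

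Among carriers of vitamins and haem, Slc48a1 (ENSMUSG00000081534.3, chr15:97778520-97792692, plus strand) and Slc23a2 held every call. Slc48a1 had 954, 897 and 903 with ACs, 1911, 1466 and 1693 after E. coli, 2257, 3071 and 2079 after IFN-γ and 1319, 1886 and 992 after both stimuli. All libraries with a stimulus lay above all ACs libraries. It rose with E. coli (log2 fold change 0.87 ± 0.18 (SE), adjusted p = 0.0028) and with IFN-γ (log2 fold change 1.41 ± 0.18 (SE), adjusted p = 8.9e-06), and with both the change, 0.56 ± 0.18, adjusted p = 0.021, was under 1.5-fold. Its annotated exons overlap those of Hdac7 on the opposite strand by 29 bases, and the strand setting of the counting is not given in the sources used here. Slc23a2 (ENSMUSG00000027340.15, chr2:132052496-132145108, minus strand), the vitamin C carrier SVCT2, had 32.5, 35.7 and 26.9 with ACs, 45.2, 10.6 and 31.7 after E. coli, 108, 104 and 154 after IFN-γ and 96.9, 56.2 and 71.7 after both stimuli. The libraries with IFN-γ, alone or with E. coli, lay above ACs, and those with E. coli alone overlapped ACs. It rose with IFN-γ (log2 fold change 1.899 ± 0.38 (SE), adjusted p = 0.00079) and with both (log2 fold change 1.19 ± 0.38 (SE), adjusted p = 0.017). The rise with both did not pass at 1.08 without ACs replicate 3 and 0.99 without IFN-γ + E. coli + ACs replicate 1.

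All 3 nucleoside carriers were lower with both stimuli. Slc28a2 (ENSMUSG00000027219.13, chr2:122426477-122461137, plus strand), the purine-preferring concentrative nucleoside transporter CNT2, had 379.8, 371 and 323 with ACs, 235, 199 and 245 after E. coli, 153, 155 and 142 after IFN-γ and 75.5, 75.7 and 102 after both stimuli. No library of any stimulus overlapped ACs, and the values with both were the lowest. The log2 fold change was -0.66 ± 0.16, adjusted p = 0.0091 with E. coli, -1.25 ± 0.16, adjusted p = 8.7e-06 with IFN-γ and -2.08 ± 0.16, adjusted p = 7.5e-09 with both. With E. coli the fall did not pass at -0.57 without E. coli + ACs replicate 2. Slc29a3, a lysosomal and mitochondrial nucleoside transporter, fell with both (log2 fold change -0.98 ± 0.23 (SE), adjusted p = 0.0021), from 96.8, 112 and 139 to 72.7, 56.2 and 46.9. Slc29a1, the equilibrative nucleoside transporter ENT1 of the plasma membrane, fell with both as well (log2 fold change -1.34 ± 0.35 (SE), adjusted p = 0.0056), from 43.9, 39.4 and 30.2 to 17.1, 8.55 and 19.3.

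**Figure D3:**
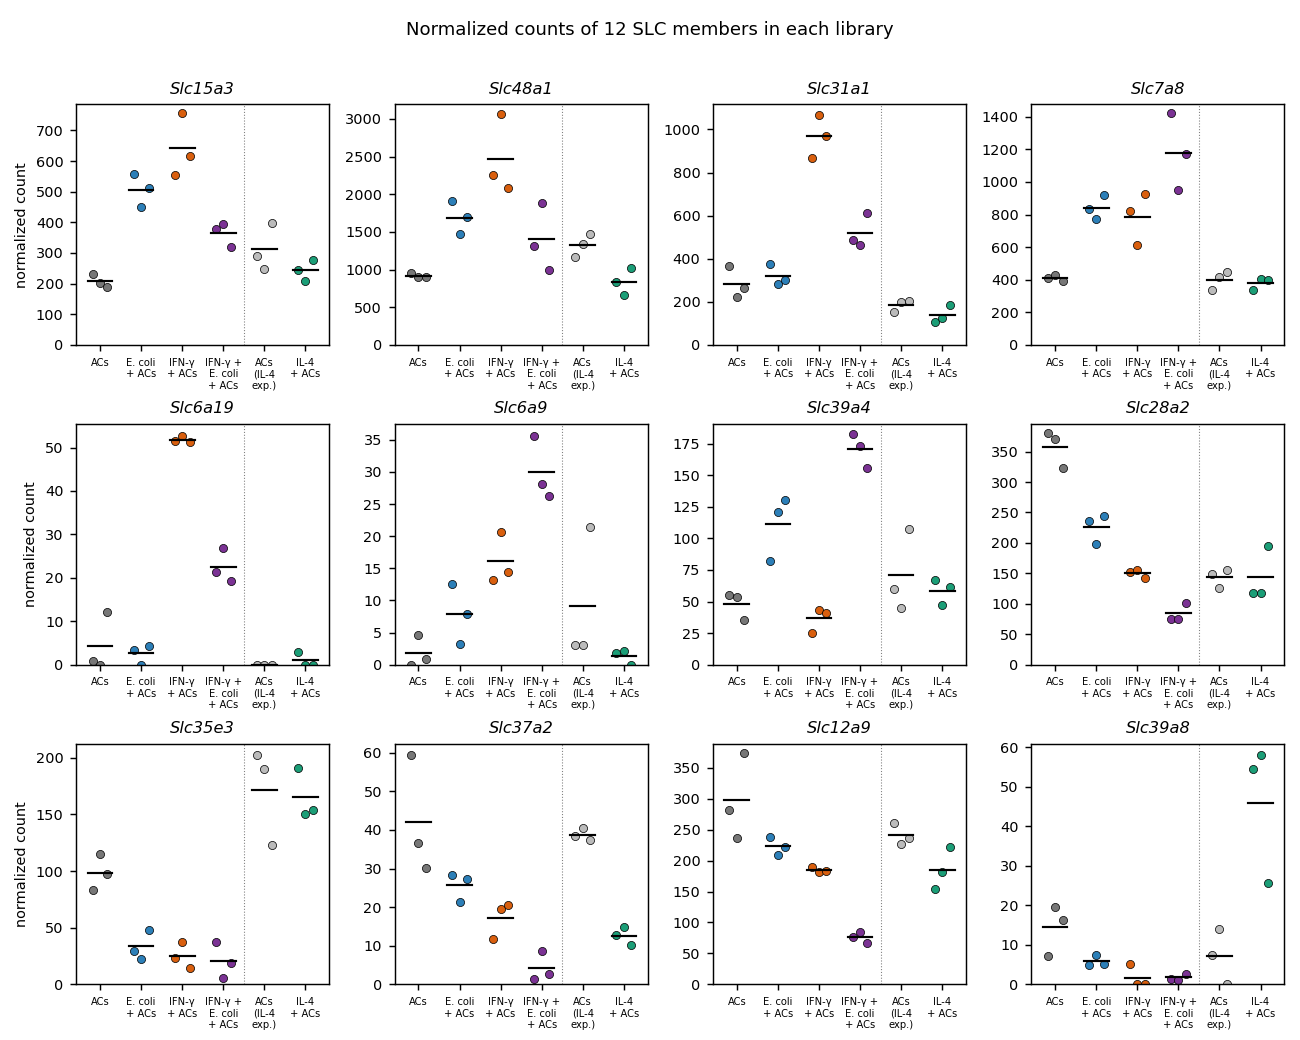
Normalized counts of 12 members in all 18 libraries, by group; points are libraries, horizontal bars are means of 3, and a dotted line separates the Type 1 experiment from the IL-4 experiment. Slc15a3, Slc48a1 and Slc31a1 peaked with IFN-γ alone, Slc7a8, Slc6a9 and Slc39a4 were highest with IFN-γ + E. coli, and Slc28a2 and Slc37a2 were lowest there.

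Of 19 nucleotide sugar carriers 5 were lower and 2 higher with both stimuli, and of 7 sugar carriers 3 were lower and 1 higher. Slc35e3 (ENSMUSG00000060181.6, chr10:117733679-117746365, minus strand), an orphan of the nucleotide sugar family, had 82.95, 115 and 97.9 with ACs, 29.3, 22.9 and 48.4 after E. coli, 23.7, 37.8 and 14.4 after IFN-γ and 37.1, 6.11 and 19.3 after both stimuli. Every library with a stimulus lay below every ACs library. It fell by 1.59 with E. coli (SE 0.48, adjusted p = 0.033), by 2.01 with IFN-γ (SE 0.48, adjusted p = 0.0037) and by 2.49 with both (SE 0.48, adjusted p = 0.00039) on the log2 scale. With E. coli it did not pass at -1.704 without ACs replicate 1, -1.47 without ACs replicate 2, -1.59 without ACs replicate 3, -1.52 without E. coli + ACs replicate 1 and -1.35 without E. coli + ACs replicate 2, and with all genes above 0 tested (-1.59, adjusted p = 0.06). The size with both was -1.83 without IFN-γ + E. coli + ACs replicate 2. Slc37a2 (ENSMUSG00000032122.15, chr9:37227585-37255738, minus strand), a glucose-6-phosphate exchanger of the endoplasmic reticulum, had 59.4, 36.6 and 30.2 with ACs, 28.5, 21.3 and 27.3 after E. coli, 11.9, 19.5 and 20.5 after IFN-γ and 1.43, 8.55 and 2.76 after both stimuli. The values with both were the lowest and did not overlap any other group of the experiment. It fell with both (log2 fold change -3.22 ± 0.48 (SE), adjusted p = 2.6e-05), with a value of -2.37 at a pseudocount of 5. Slc2a6, the lysosomal hexose transporter GLUT6, rose with IFN-γ (log2 fold change 0.83 ± 0.25 (SE), adjusted p = 0.02) and with both (log2 fold change 1.38 ± 0.25 (SE), adjusted p = 0.00026), its values being 60.2, 35.7 and 48.9 with ACs, 59.4, 71.9 and 86.2 after E. coli, 67.3, 118 and 75.9 after IFN-γ and 135, 138 and 102 after both stimuli. The libraries with both had no overlap with ACs. The rise with IFN-γ did not pass at 0.63 without ACs replicate 2 and 0.59 without IFN-γ + ACs replicate 2, and with all 18 libraries in 1 fit (0.83, adjusted p = 0.074). The other sugar carriers that were lower with both were Slc2a8, the intracellular hexose transporter GLUT8 (-1.31), and Slc50a1, the sugar exporter SWEET1 (-0.67). Carriers that supply the Golgi apparatus with CMP-sialic acid (Slc35a1, -1.16), GDP-fucose (Slc35c1, -0.66) and the sulfate donor PAPS (Slc35b2, -1.14) were lower with both, as was Slc35c2 (-1.43). Slc35b3, a PAPS carrier as well, and Slc35d1, which carries UDP-sugars into the endoplasmic reticulum, were higher with both (0.69 and 0.98). With IFN-γ alone the higher members were Slc35b1, Slc35f5 and Slc35f6, at 0.62 to 1.06.

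Carriers of monocarboxylates changed in both directions. Slc16a7 (ENSMUSG00000020102.15, chr10:125219270-125389465, minus strand), the pyruvate-preferring MCT2, had 54.5, 76.96 and 81.6 with ACs, 29.3, 23.7 and 19.4 after E. coli, 13.2, 43.6 and 51.3 after IFN-γ and 29.9, 20.8 and 23.4 after both stimuli. All stimulated libraries were below ACs. It fell with E. coli (-1.52 ± 0.39, adjusted p = 0.014), with IFN-γ (-1.14 ± 0.39, adjusted p = 0.037) and with both (-1.48 ± 0.39, adjusted p = 0.0059). With E. coli the fall did not pass at -1.45 without ACs replicate 2, -1.41 without ACs replicate 3 and -1.38 without E. coli + ACs replicate 3. With IFN-γ it did not pass at -1.08 without ACs replicate 2, -1.03 without ACs replicate 3 and -0.56 without IFN-γ + ACs replicate 1, and with all genes above 0 tested (-1.14, adjusted p = 0.07). Slc16a6 rose with E. coli (log2 fold change 0.65 ± 0.17 (SE), adjusted p = 0.015) and with both (log2 fold change 0.65 ± 0.17 (SE), adjusted p = 0.0051), from 563, 564 and 615 with ACs to 982, 1034 and 737 and 818, 1222 and 757. No overlap was seen in either comparison. The rise with E. coli did not pass at 0.62 without ACs replicate 1, 0.62 without ACs replicate 2, 0.59 without E. coli + ACs replicate 1 and 0.55 without E. coli + ACs replicate 2. The rise with both did not reach the threshold at 0.44 without IFN-γ + E. coli + ACs replicate 2, and after upper-quartile scaling (0.53, adjusted p = 0.022). Exons of Slc16a6 overlap Amz2 on the opposite strand by 1052 bases, and reads of the pair may have been mixed. Slc16a1, the lactate carrier MCT1, lay at the limit of 10 and had 4.07, 7.51 and 0 with ACs, 11.7, 8.18 and 7.92 after E. coli, 10.6, 11.5 and 18.5 after IFN-γ and 8.55, 21.99 and 22.1 after both stimuli. No stimulated library overlapped ACs, and no value was above 22.1. The log2 fold changes were 2.01 with IFN-γ and 2.29 with both, given as a description, since its mean was 9.45 without the IFN-γ libraries and 8.64 without those with both. They were 1.102 and 1.39 without ACs replicate 3. At a pseudocount of 5 the changes were 1.14 and 1.38, and without ACs replicate 2 they were 2.65 and 2.93.

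The fatty acid carrier Slc27a4 (ENSMUSG00000059316.2, chr2:29802634-29817522, plus strand), FATP4, which also has acyl-CoA synthetase activity, had 423, 415 and 405 with ACs, 845, 970.4 and 892 after E. coli, 625, 681 and 544 after IFN-γ and 1240.2, 1317 and 745 after both stimuli. No library of any stimulus overlapped ACs. It rose with E. coli (log2 fold change 1.12 ± 0.17 (SE), adjusted p = 0.0001) and with both (log2 fold change 1.36 ± 0.17 (SE), adjusted p = 2.8e-06), and with IFN-γ alone the change of 0.57 ± 0.17, adjusted p = 0.016 was under 1.5-fold. Slc10a6, a carrier of sulfated steroids, rose with IFN-γ (log2 fold change 0.97 ± 0.19 (SE), adjusted p = 0.00075), from 112, 103 and 88.9 to 186, 238 and 179, without overlap. With both stimuli its values of 91.2, 119.7 and 116 overlapped those with ACs.

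Family 6 carriers of taurine, glycine, serotonin and GABA moved apart. Slc6a6 (ENSMUSG00000030096.8, chr6:91684053-91759066, plus strand) had 1339, 1292 and 1279 with ACs, 1909.5, 1746 and 1685 after E. coli, 2151, 1839.7 and 2752 after IFN-γ and 2503, 1959 and 2789.8 after both stimuli. Each stimulated library exceeded each ACs library. It rose with IFN-γ (log2 fold change 0.77 ± 0.14 (SE), adjusted p = 0.00043) and with both (log2 fold change 0.88 ± 0.14 (SE), adjusted p = 6.9e-05), and with E. coli the change of 0.45 ± 0.14, adjusted p = 0.042 was under 1.5-fold. Slc6a9 (ENSMUSG00000028542.17, chr4:117834506-117875198, plus strand), the glycine transporter GLYT1, had 0, 4.69 and 0.82 with ACs, 12.6, 3.27 and 7.92 after E. coli, 13.2, 20.6 and 14.4 after IFN-γ and 35.6, 28.1 and 26.2 after both stimuli. With ACs all values were at most 4.69, and the libraries with IFN-γ lay above them. It rose with IFN-γ (log2 fold change 2.94 ± 0.63 (SE), adjusted p = 0.0016) and had a log2 fold change of 3.82 with both, the latter a description, since its mean over all libraries was 7.26 without that group. These were 1.67 and 2.41 at a pseudocount of 5 and 3.64 and 4.51 without ACs replicate 2. Slc6a4, the serotonin transporter, had 60.2, 35.7 and 63.6 with ACs, 27.6, 48.2 and 51.02 after E. coli, 5.28, 12.6 and 34.9 after IFN-γ and 49.9, 26.9 and 11.04 after both stimuli. The 3 libraries with IFN-γ alone lay below those with ACs, the nearest by less than 1 count. It fell with IFN-γ (log2 fold change -1.85 ± 0.54 (SE), adjusted p = 0.016). This fall did not pass at -1.74 without ACs replicate 1, -1.71 without ACs replicate 3 and -1.25 without IFN-γ + ACs replicate 1. The value was -2.51 without IFN-γ + ACs replicate 3. In the IL-4 experiment Slc6a4 had 459, 501 and 724 with ACs, so that its mean with ACs was 561 ± 142 (SD) there and 53.1 ± 15.2 in the Type 1 experiment (n = 3 each), a difference that was not tested, because the experiment and any other difference between these libraries cannot be told apart. Slc6a13, the GABA and taurine carrier GAT2, was lower with IFN-γ (-1.05) and with both (-1.13).

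With both stimuli, 8 of 31 mitochondrial carriers tested were lower and 3 higher. Slc25a5, which exchanges ADP for ATP, had 1025, 974 and 997 with ACs, 896, 872 and 909 after E. coli, 1087, 1193 and 1059 after IFN-γ and 676, 656 and 654 after both stimuli. The values with both lay below all others of the experiment. It fell with both (log2 fold change -0.59 ± 0.10 (SE), adjusted p = 0.00013), just past 1.5-fold. It stayed under 1.5-fold at -0.57 without ACs replicate 1 and -0.58 without IFN-γ + E. coli + ACs replicate 3. Slc25a15, the ornithine carrier of the urea cycle, fell with both as well (log2 fold change -2.13 ± 0.61 (SE), adjusted p = 0.0096), from 16.3, 38.5 and 17.9 to 2.85, 15.9 and 1.38. It did not pass at -1.75 without ACs replicate 2 and -1.54 without IFN-γ + E. coli + ACs replicate 3. It was -2.95 without IFN-γ + E. coli + ACs replicate 2 and -1.45 at a pseudocount of 5. In the other direction, Slc25a33, a pyrimidine nucleotide carrier, rose with E. coli (log2 fold change 1.36 ± 0.42 (SE), adjusted p = 0.037) and with both (log2 fold change 1.68 ± 0.42 (SE), adjusted p = 0.0035), from 7.32, 15.9 and 12.2 with ACs to 42.7, 17.99 and 36.9 and 58.4, 26.9 and 35.9. No overlap was seen with ACs. The rise with E. coli did not pass at 1.08 without ACs replicate 1, 1.41 without ACs replicate 3, 1.12 without E. coli + ACs replicate 1 and 1.23 without E. coli + ACs replicate 3, and with all genes above 0 tested (1.36, adjusted p = 0.08) and with all 18 libraries in 1 fit (1.36, adjusted p = 0.29). The rise with both did not pass with all 18 libraries in 1 fit (1.68, adjusted p = 0.082). Other carriers that were lower with both were Slc25a1, which exports citrate (-1.09), Slc25a4, a second ADP/ATP exchanger (-0.89), Slc25a24, an ATP-magnesium/phosphate carrier (-0.95), Slc25a45 (-0.71) and Slc25a53 (-1.36). Those that were higher with both included Slc25a12, an aspartate/glutamate carrier (0.599), and Slc25a46, a protein of the outer membrane (0.62). The fall of Slc25a53 did not pass at -1.44 without ACs replicate 1, -1.31 without ACs replicate 2, -1.33 without ACs replicate 3, -0.99 without IFN-γ + E. coli + ACs replicate 1 and -1.37 without IFN-γ + E. coli + ACs replicate 3, and with all genes above 0 tested (-1.36, adjusted p = 0.096), by DESeq2 (-1.34, adjusted p = 0.066) and with all 18 libraries in 1 fit (-1.36, adjusted p = 0.17).

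Of 18 ion carriers, 6 were lower and 1 was higher with both stimuli. Slc12a9 (ENSMUSG00000037344.14, chr5:137314558-137333597, minus strand), an orphan of the cation-chloride cotransporter family, had 282, 236 and 373 with ACs, 238, 209 and 223 after E. coli, 189.9, 182 and 183 after IFN-γ and 76.98, 84.3 and 67.6 after both stimuli. The libraries with both stimuli lay below all those of the other 3 groups. It fell with IFN-γ (log2 fold change -0.66 ± 0.17 (SE), adjusted p = 0.0071) and with both (log2 fold change -1.93 ± 0.17 (SE), adjusted p = 4e-08). With IFN-γ it did not pass at -0.48 without ACs replicate 3. Slc12a7, the potassium-chloride cotransporter KCC4, fell with both (log2 fold change -1.42 ± 0.42 (SE), adjusted p = 0.012), from 48.8, 29.1 and 71.8 to 14.2, 21.99 and 15.2. It did not pass at -1.12 without ACs replicate 3. Slc9a4, a sodium/proton exchanger at low level, fell with IFN-γ (log2 fold change -1.71 ± 0.58 (SE), adjusted p = 0.035), from 21.1, 22.5 and 33.4 to 5.28, 14.9 and 4.10. It did not pass at -1.83 without ACs replicate 1, -1.79 without ACs replicate 2, -1.51 without ACs replicate 3, -1.54 without IFN-γ + ACs replicate 1 and -1.39 without IFN-γ + ACs replicate 3, and with all genes above 0 tested (-1.71, adjusted p = 0.079) and with all 18 libraries in 1 fit (-1.71, adjusted p = 0.07). With both stimuli it was lower as well (log2 fold change -1.49 ± 0.58 (SE), adjusted p = 0.05), at 4.28, 8.55 and 15.2. This was not past the threshold at -1.61 without ACs replicate 1, -1.56 without ACs replicate 2, -1.29 without ACs replicate 3, -1.49 without E. coli + ACs replicate 1, -1.49 without E. coli + ACs replicate 3, -1.49 without IFN-γ + ACs replicate 1, -1.07 without IFN-γ + E. coli + ACs replicate 1 and -1.502 without IFN-γ + E. coli + ACs replicate 2, and with all genes above 0 tested (-1.49, adjusted p = 0.11) and with all 18 libraries in 1 fit (-1.49, adjusted p = 0.092). Slc4a7, a sodium/bicarbonate cotransporter, and Slc41a3, a magnesium carrier, were lower with both (-1.13 and -0.78), and Slc24a3, a potassium-dependent sodium/calcium exchanger, was higher with E. coli (0.66) and with both (0.83). Among organic ion carriers, Slc22a17, the lipocalin-2 receptor, fell with IFN-γ (log2 fold change -1.098 ± 0.35 (SE), adjusted p = 0.026) and with both (log2 fold change -1.92 ± 0.35 (SE), adjusted p = 0.00026), from 29.3, 47.9 and 34.2 with ACs to 18.5, 19.5 and 12.3 and 8.55, 9.77 and 8.28. With IFN-γ the fall did not pass at -0.91 without ACs replicate 2, -1.14 without ACs replicate 3 and -0.903 without IFN-γ + ACs replicate 3, and with all genes above 0 tested (-1.098, adjusted p = 0.072). Slc17a9, the vesicular nucleotide transporter, was lower with both (-1.28). Slc17a5, the lysosomal sialic acid exporter, did not pass with E. coli (-0.59 ± 0.35, adjusted p = 0.31), from 56.1, 60.1 and 53.8 to 47.7, 33.5 and 32.5.

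The 5 members with no transporter function were measured alike. Slc9a3r2, a scaffold protein, fell with both stimuli (log2 fold change -2.41 ± 0.51 (SE), adjusted p = 0.00099), from 34.97, 31.9 and 17.1 to 7.13, 3.66 and 2.76, with a change of -1.78 at a pseudocount of 5. Its paralog Slc9a3r1 passed in no comparison and had 472, 451 and 496 with ACs, 514, 471 and 493 after E. coli, 537, 527 and 394 after IFN-γ and 509, 632 and 444 after both stimuli. Slc4a1ap, Slc7a6os and the pseudogene Slc2a4rg-ps passed in none of the 4 stimulus comparisons either. The members with the highest levels among the 82 that passed in none were Slc25a39, Slc43a2, Slc25a30, Slc25a28, a mitochondrial iron carrier, and Slc9a3r1. For Slc25a39 the values were 1408, 1518 and 1361 with ACs, 1986, 1895 and 2274 after E. coli, 2157, 1938 and 1200.5 after IFN-γ and 1662, 1661 and 1272 after both stimuli. The E. coli libraries lay above ACs, by less than 1.5-fold (0.52 ± 0.17, adjusted p = 0.048). For Slc25a28 the counts were 527, 447 and 596 with ACs, 604, 563 and 519 after E. coli, 627, 585 and 492 after IFN-γ and 630.1, 711 and 553 after both stimuli, which overlapped in each comparison with ACs.

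The next question was whether the E. coli effect differed when IFN-γ was present. The interaction term, the E. coli effect with IFN-γ minus that without, was past the threshold for 7 of 144 members, 1 of them positive (0.694%, against 3.16% of all genes) and 6 negative (4.17%, against 4.28%). It was -2.09 ± 0.21, adjusted p = 5.2e-06 (± SE) for Slc15a3, whose E. coli effect was 1.28 without and -0.81 with IFN-γ. For Slc48a1 it was -1.72 ± 0.26, adjusted p = 0.00037, with E. coli effects of 0.87 and -0.85. Both of these carriers of endosomes and lysosomes were thus higher with either stimulus and lower with both than with IFN-γ alone. For Slc31a1 the interaction was -1.09 ± 0.25, adjusted p = 0.01, and for Slc10a6 it was -1.07 ± 0.27, adjusted p = 0.02. These rose with IFN-γ alone, and E. coli without IFN-γ changed them by 0.19 and 0.19. For Slc12a9 (-0.88 ± 0.24, adjusted p = 0.03) and Slc25a5 (-0.58 ± 0.14, adjusted p = 0.017) the values with both were the lowest. The positive term was that of Slc25a36, a mitochondrial pyrimidine nucleotide carrier, at 1.29 ± 0.25, adjusted p = 0.0036, with 216, 185 and 230.0 with ACs, 144, 177 and 141 after E. coli, 158, 149 and 215 after IFN-γ and 278, 279.7 and 379 after both stimuli. Its values with both were the highest, while those with either alone lay within or below the range of ACs. Of the 8 macrophage markers, 2 (among them C1qa) also had a negative interaction past the threshold, and Il5ra and Mmp8 had a positive one. The part of these markers was not tested.

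For Slc10a6 the interaction did not pass at -0.97 without ACs replicate 3, -0.93 without E. coli + ACs replicate 1, -0.94 without IFN-γ + ACs replicate 2 and -0.94 without IFN-γ + E. coli + ACs replicate 1, and with all 18 libraries in 1 fit (-1.07, adjusted p = 0.11). That of Slc12a9 did not pass at -0.86 without ACs replicate 1, -0.73 without ACs replicate 2, -0.84 without E. coli + ACs replicate 1, -0.89 without E. coli + ACs replicate 3, -0.86 without IFN-γ + ACs replicate 1 and -0.895 without IFN-γ + ACs replicate 2. That of Slc25a5, which lay at the 1.5-fold limit, was under it or not past the adjusted p at -0.57 without ACs replicate 2, -0.58 without ACs replicate 3, -0.58 without E. coli + ACs replicate 1, -0.57 without E. coli + ACs replicate 3, -0.53 without IFN-γ + ACs replicate 2, -0.58 without IFN-γ + E. coli + ACs replicate 2 and -0.58 without IFN-γ + E. coli + ACs replicate 3, and with a pseudocount of 5 (-0.58, adjusted p = 0.017), by edgeR (-0.56, adjusted p = 0.025) and by DESeq2 (-0.56, adjusted p = 0.0011). Without E. coli + ACs replicate 1 or IFN-γ + ACs replicate 2, 3 members had a negative call, and the count ranged from 3 to 9 over the libraries left out. All genes with a negative call went from 435 to 239 and 272 without these libraries, and ranged from 239 to 582. The terms of Slc15a3, Slc48a1, Slc31a1 and Slc25a36 passed without any 1 library.

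**Figure D4:**
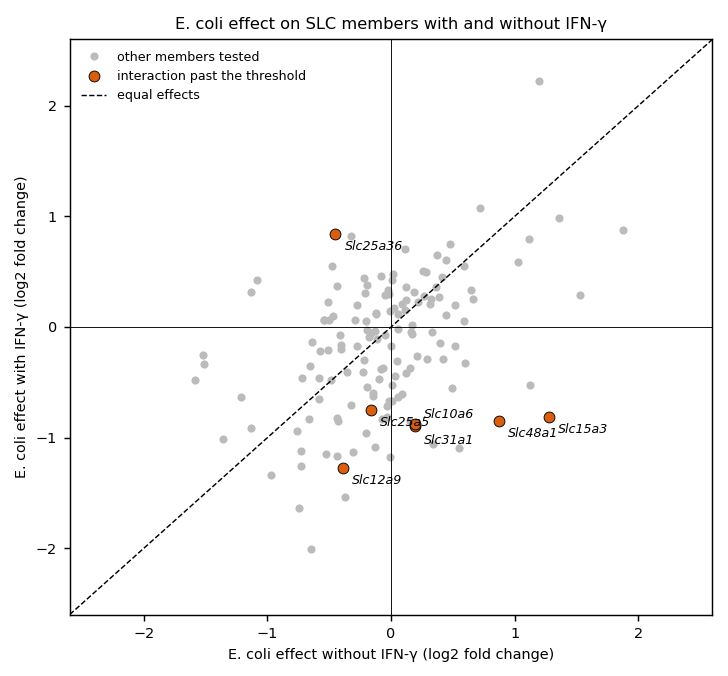
Log2 fold change of E. coli + ACs against ACs (horizontal) and of IFN-γ + E. coli + ACs against IFN-γ + ACs (vertical) for 144 members, with the 7 whose interaction passed the threshold in colour and a dashed line of equal effects. Slc15a3 and Slc48a1 lie right of 0 and below 0, and Slc25a36 lies left of 0 and above 0.

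IL-4 + ACs were compared with ACs of the same experiment, to ask whether a Type 2 stimulus changed the transporters. None of 141 members tested passed the limma threshold in either direction, against 0.74% of all 10669 genes higher and 0.347% lower. At an unadjusted p under 0.05, 6 were higher and 9 lower, and the smallest adjusted p was 0.12. The median change was -0.155 (log2) over the members tested and -0.008 over all genes. It was negative for 94 members and positive for 47, a shift that was not tested. On reads recovered from the normalized counts, edgeR called 2 higher (Slc30a4 and Slc39a8) and 1 lower (Slc37a2), and DESeq2 called 2 higher (Slc30a4 and Slc39a8) and 1 lower (Slc48a1). Without the 2 shallow libraries, 5 were higher and 4 lower by limma, with 2 libraries left in each group, where 3.25% of all genes were higher and 2.93% lower. The neutrophil marker Mmp8 was lower with IL-4, at means of 325 and 66.4, and its part was not tested. Slc30a4 and Slc39a8 were kept through the IL-4 + ACs libraries, so that their calls are no independent evidence. The members nearest the threshold were named after their values were seen.

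Slc39a8 (ENSMUSG00000053897.15, chr3:135825279-135888572, plus strand), the zinc and manganese importer ZIP8, had 7.52, 14.01 and 0 with ACs and 54.5, 57.96 and 25.7 with IL-4 + ACs. All 3 libraries with IL-4 exceeded all 3 without it, and the lowest value of each group was from its shallow library, in which 3 reads made 16.1 and 15.4. The log2 fold change was 3.14 ± 0.93 (SE), and 2.34 without the shallow libraries. In the Type 1 experiment its values were 7.32, 19.7 and 16.3 with ACs, 5.02, 7.36 and 5.28 after E. coli, 5.28, 0 and 0 after IFN-γ and 1.43, 1.22 and 2.76 after both stimuli, under the mean needed for a test. Slc30a4, a zinc exporter into vesicles, had 6.02, 5.45 and 10.7 and 27.8, 33.2 and 35.98, with a log2 fold change of 2.03 ± 0.50 (SE), and 2.22 without the shallow libraries. Both are given as descriptions, since the means without the IL-4 + ACs libraries were 6.21 and 5.804. Slc37a2 had 38.4, 40.5 and 37.5 and 12.8, 14.8 and 10.3, which did not overlap (-1.56 ± 0.38, adjusted p = 0.14). Slc48a1 had 1163, 1341 and 1474 and 830.2, 657 and 1018, again without overlap (-0.68 ± 0.17, adjusted p = 0.16). Slc25a25, a mitochondrial ATP-magnesium/phosphate carrier, had 129, 124 and 96.5 and 205, 180.2 and 242 (0.84 ± 0.20, adjusted p = 0.12). Without the shallow libraries, Slc37a2 (-1.46), Slc48a1 (-0.76) and Slc25a25 (0.60) were past the threshold. Slc2a6 (1.25 ± 0.40) did not pass, nor did the members with the largest change with IL-4 in their role lists, Slc37a2, Slc16a7 and Slc2a4rg-ps among them. Of these leading members, the log2 fold changes were -1.29 ± 0.41 for Slc8b1, the mitochondrial sodium/calcium exchanger, -0.88 ± 0.28 for Slc15a4 and -0.75 ± 0.26 for Slc29a1. Those of Slc43a3, Slc10a7, Slc25a53, Slc6a8, Slc35e4, Slc17a8 and Slc19a2 were -2.200, -0.64, -2.29, -1.12, -1.19, -0.78 and 0.68, at adjusted p of at least 0.53.

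Whether the response to IL-4 differed from that to IFN-γ + E. coli was tested as the difference of the 2 effects, each taken within its experiment, over all 18 libraries. Of 149 members, 15 had a higher effect with IL-4 (10.1%, against 9.67% of all 10414 genes) and 18 a lower one (12.1%, against 10.8%). After scaling to a common upper quartile, which moved the median of all genes from 0.043 to 0.183 here and from -0.047 to -0.165 for IFN-γ + E. coli against ACs, these counts were 20 and 13. The counts ranged from 10 to 22 and from 14 to 19, against 776 to 1114 and 946 to 1216 of all genes, when single libraries were left out. They include Slc39a8 (higher) and Slc6a9 (lower), each kept through a group of this comparison. For Slc7a8 the IL-4 effect was -0.06 ± 0.16 and the difference -1.56 ± 0.23, adjusted p = 3.4e-05. For Slc39a4 the IL-4 effect was -0.19 ± 0.34 and the difference -2.03 ± 0.42, adjusted p = 0.0014. In these and in Slc27a4, Slc31a1, Slc15a3, Slc48a1 and Slc6a6, the IL-4 effect was lower (differences of -1.26, -1.34, -1.14, -1.24 and -1.004). Slc28a2 had 149.6, 125 and 155 with ACs and 118, 118 and 195 with IL-4 + ACs, which overlapped, and its difference was 2.05 ± 0.27, adjusted p = 1.1e-05. For Slc12a9 the difference was 1.54 ± 0.24, adjusted p = 9.1e-05, and for Slc25a5 it was 0.73 ± 0.15, adjusted p = 0.0015. Slc35e3 had 202, 190.0 and 123 and 191, 151 and 154, and a difference of 2.45 ± 0.62, adjusted p = 0.0072 that was 1.80 without IFN-γ + E. coli + ACs replicate 2.

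For 2 members at low level the difference is given as a description, since Slc39a8 was kept through the IL-4 + ACs libraries (mean 6.21 without them) and Slc6a9 through those with both Type 1 stimuli (7.26). For Slc39a8 it was 5.54 ± 1.25 (SE), with 3.66 at a pseudocount of 5, 6.33 and 4.37 without replicates 2 and 3 of ACs in the IL-4 experiment, and 4.74 without both shallow libraries. For Slc6a9, which had 3.01, 3.11 and 21.4 with ACs and 1.74, 2.11 and 0 with IL-4 + ACs, it was -5.63 ± 1.11 (SE), with -3.35 at a pseudocount of 5, -4.62 with array weights, -4.29 without both shallow libraries, -6.32 without ACs replicate 2 of the Type 1 experiment and -4.81 without ACs replicate 3 of the IL-4 experiment. Macrophage markers differed in the same test, 3 of 8 higher (among them C1qa and Timd4) and 2 lower (Adgre1 and Mertk). Of the eosinophil markers Siglecf was higher and Ccr3 lower, and Mmp8 and Cpa3 were lower. The part of these markers in the differences was not tested.

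**Figure D5:**
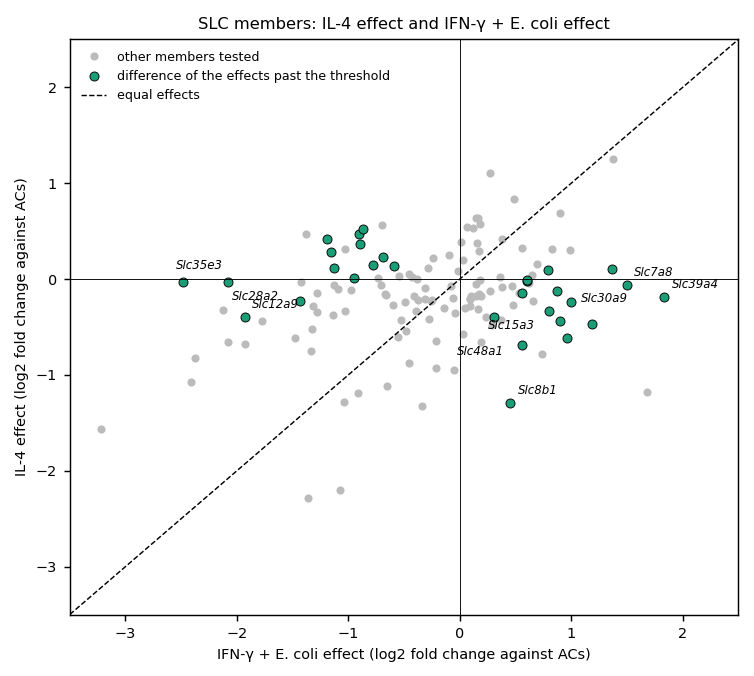
Log2 fold change of IFN-γ + E. coli + ACs against ACs (horizontal) and of IL-4 + ACs against ACs of its experiment (vertical) for the 136 members tested in both, with 30 whose difference passed the threshold in colour. Slc7a8 and Slc39a4 lie far right near the line of no IL-4 effect, and Slc35e3 and Slc28a2 far left.

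Other transporter genes were counted by the same fits. Of the 12 SLC genes left out by name, 7 were higher with E. coli, 8 with IFN-γ and 8 with both, and none was lower. Over all genes the shares higher were 5.05%, 11.4% and 14.7%, and the shares lower 5.25%, 9.96% and 17.2%, and they apply to the lists below too. Of 11 tested with IL-4, 1 was higher, Slc7a2, a carrier of arginine and other cationic amino acids. Among 25 genes of ATP-binding cassette transporters, which move substrates by ATP hydrolysis, 1 was higher and 4 lower with E. coli, 4 and 5 with IFN-γ, and 4 and 7 with both, and none of 24 passed with IL-4. Of 4 organic anion transporters of the Slco family, 2 were higher and 1 lower with E. coli, and 1 was higher with IFN-γ and with both.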

How the data were processed

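RNA of 18 eosinophil libraries (6 groups of 3) was sequenced by CEL-Seq2 from 2 ng per sample. Per the labels, the authors' tools were FastQC 0.11.5, Trim Galore, cutadapt 1.10, TopHat2 2.1.0, Bowtie2 2.2.6, HTSeq 0.6.1 and DESeq2 1.26.0 on GRCm38. The methods also describe a second pipeline with STAR, and which one made the table, and its strand setting, are not given in the sources used here. The signal values deposited by the authors are reads per gene divided by a DESeq2 size factor, in 2 decimals. Whole reads were recovered for 99.96% to 100% of values (within 0.0051), and depths are from these reads. Counting limits cover counting error only, and CEL-Seq2 reads from the 3′ end do not allow levels of different genes to be compared per length.

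Of 54446 gene IDs, 54409 matched a symbol. Genes with a mean of at least 10 over the libraries of a fit were tested with limma 3.58.1 (R 4.3.3, trend) on log2(normalized count + 1), with Benjamini-Hochberg adjustment over all genes, calling an adjusted p under 0.05 with a change of at least 1.5-fold. With this pseudocount, changes of low genes can be understated or overstated. For Slc39a8 with IL-4 the log2 fold change was 3.14 here, 2.20 at a pseudocount of 5 and 2.40 by edgeR. Type 1 comparisons and the interaction were fitted on 12 libraries, IL-4 on 6, and the difference between the IL-4 and IFN-γ + E. coli effects on all 18. The fits were tested on simulated data with known changes. The members and lists were chosen with earlier results of these data known. The rule named the 8 highest members, the 5 largest rises and falls per comparison (higher mean of at least 50, groups not overlapping), members past the interaction threshold, the 5 highest members without a call, members that are no transporters, and the largest change per role list and comparison. Roles were assigned by hand from general knowledge, by family number with exceptions for single genes, so that the substrate of a member can differ from its list.

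Alternatives were a pseudocount of 5, all genes above 0 or a minimum mean of 50, a block for the replicate number, upper-quartile scaling, limma's array weights, the count tests of edgeR 4.0.16 and of DESeq2 1.42.0 run on the recovered reads, all 18 libraries in 1 fit, no fold threshold, both shallow libraries left out and each library left out. For single genes they were run on members named by the rule. The study describes 3 biological replicates, and nothing in the sources used here says that those of a stimulus group came from separate mice, so p-values measure only the spread between these samples. Python 3.11.15, numpy 2.4.6, pandas 2.3.3 and matplotlib 3.10.9 were used. Some genes are not reported here by name, and counts include them.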

Additional observations from a re-analysis of the deposited data

Results flagged for a closer look

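Among the SLC members, 7 had an E. coli effect that differed between eosinophils with and without IFN-γ by the interaction test (limma, adjusted p under 0.05 and at least 1.5-fold), all given in the report with their adjusted p. On the log2 scale the effect with IFN-γ minus that without was -2.091 for Slc15a3, -1.72 for Slc48a1, -1.092 for Slc31a1, -1.066 for Slc10a6, -0.884 for Slc12a9 and -0.585 for Slc25a5. It was 1.292 for Slc25a36. Each rests on 3 libraries per group.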

How the results depend on the processing

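Of 1922 values computed for 88 single-gene results under the alternatives, 1781 kept their direction and side of the threshold, 141 kept the direction but were no longer past it, and 0 reversed. For 57 results the threshold was passed in every setting that tested the gene. At a minimum mean of 50 only 55 of the 88 were tested. Among the counts of members, those lower with E. coli (6) were 3 at a mean of at least 50 and 11 with array weights. Those lower with IFN-γ (18) were 11 and those lower with both (37) were 18 at a mean of at least 50, where fewer genes were tested. Of all 6747 genes tested at that mean, 387 were lower with E. coli, 645 with IFN-γ and 963 with both. In the main fit these were 534, 1013 and 1746 of 10166, and with array weights 870 were lower with E. coli. No share of members is given for these settings. With IL-4 (0 higher and 0 lower), there were 2 and 1 with all genes above 0, 5 and 7 with array weights, 2 and 1 by edgeR and by DESeq2, 2 and 2 with all 18 libraries in 1 fit, and 5 and 4 without both shallow libraries. Over all genes, IL-4 gave 79 higher (0.74%) and 37 lower (0.347%) by limma, 125 (0.479%) and 83 (0.318%) with all genes above 0, 389 (3.65%) and 356 (3.34%) with array weights, 127 (1.19%) and 85 (0.797%) by edgeR, 128 and 81 by DESeq2, 116 (1.11%) and 105 (1.01%) with all 18 libraries in 1 fit and 345 (3.25%) and 311 (2.93%) without both shallow libraries, so that the counts of all genes rose in the same settings. DESeq2 found 2 positive interactions in place of 1. Members with a higher effect of IL-4 than of IFN-γ + E. coli (15) were 9 with all genes above 0 and 27 with array weights, where the counts of all genes higher went from 1007 to 739 and 1542. The causes were not tested beyond the number of genes.

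Leaving out 1 library gave 5 to 9 members higher and 2 to 7 lower with E. coli, 13 to 15 and 11 to 22 with IFN-γ, 19 to 24 and 29 to 39 with both, 0 to 0 in both directions with IL-4, 1 to 2 positive and 3 to 9 negative interactions, and 10 to 22 and 14 to 19 for the difference between effects. Counts of all genes were then 401 to 537 higher and 352 to 614 lower with E. coli, and 1012 to 1183 and 734 to 1088 with IFN-γ. They were 1401 to 1604 and 1375 to 1819 with both, and 31 to 95 and 16 to 51 with IL-4. The 2 positive interactions appeared without IFN-γ + E. coli + ACs replicate 2. Libraries with the same replicate number showed little shared deviation (mean correlation of deviations 0.028 for IL-4 and 0.007 for Type 1). With 3 libraries per group this cannot exclude a shared source or handling, and both replicate 3 libraries of the IL-4 experiment were shallow. With the replicate number as a block, the counts higher and lower were 8 and 6 with E. coli, 15 and 19 with IFN-γ, 23 and 36 with both, 0 and 0 with IL-4, 1 and 7 for the interaction and 15 and 19 for the difference between effects. In the shallow libraries 6 (ACs) and 9 (IL-4 + ACs) members were at 0, against 0 to 3 elsewhere, which limits the IL-4 comparison for low members.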
